A study of Mus musculus with 10 samples.

Results

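The 38 genes described here encode the enzymes that carry glucose carbon through glycolysis, the lactate dehydrogenases, the pyruvate dehydrogenase complex and its inhibitory kinases, pyruvate carboxylase, the cytosolic phosphoenolpyruvate carboxykinase Pck1 and most enzymes of the tricarboxylic acid (TCA) cycle. They were chosen by gene symbol, and all 38 were found among the 32889 genes of the deposited table. All 38 passed the filter on low counts, which left 19676 genes for testing. Expression was measured by RNA sequencing in brown adipose tissue of wild-type C57BL/6J mice. The groups were 3 obesity-prone libraries (mice on a high-fat diet), 3 obesity-resistant libraries (mice on the same kind of diet) and 4 control libraries (mice on regular chow). The labels say nothing of age, sex, length of feeding or the weight that separated prone from resistant mice. Whether each library stands for its own animal is not stated either, and p-values then measure nothing more than the spread between these samples, which may be technical.

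Brown fat burns fuel to make heat through the uncoupling protein Ucp1. Fatty acids are its main fuel, but it also takes up much glucose, which is converted to pyruvate and lactate, to acetyl-CoA for oxidation or fatty acid synthesis, and to glycerol phosphate for triglycerides. The pyruvate dehydrogenase complex commits pyruvate to acetyl-CoA and is switched off by the pyruvate dehydrogenase kinases, Pdk1 to Pdk4. Pck1 makes phosphoenolpyruvate from oxaloacetate, and in fat cells that route feeds glycerol phosphate for the re-esterification of fatty acids.

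By edgeR's quasi-likelihood test on counts, at an adjusted p below 0.05, the hexokinase Hk1 rose in obesity-prone libraries 2.14-fold over control, while Pck1 fell to 0.514 times and the cytosolic malate dehydrogenase Mdh1 to 0.596 times the control level. None of the other genes passed that test. In obesity-resistant libraries none of the 38 passed it against control, and none passed it between obesity-prone and obesity-resistant libraries. DESeq2, the other count-based tool, called more of them in both comparisons with control, as given with the counts below. A gene is named as called where it passed the edgeR test, unless DESeq2 is named. The promoters of the 3 genes that passed are shown because they are the sequences next to the changed transcripts. Each is the 250 bases before a transcription start, from RefSeq on GRCm38.p6. Hk1 has a pair of annotated starts, both on the minus strand. Their promoters are chr10:62379909-62380158 near the 5′ end of the gene and chr10:62340422-62340671 inside it. The Pck1 promoter is chr2:173152823-173153072 on the plus strand, and the Mdh1 promoter is chr11:21571935-21572184 on the minus strand. Capitals mark the letters TTACGTCA in Pck1, known in the rat gene as a cAMP response element, and ACGTG in Mdh1. ACGTG is a form of the core of the hypoxia response element that is known from many glycolytic genes.
Hk1, upstream start: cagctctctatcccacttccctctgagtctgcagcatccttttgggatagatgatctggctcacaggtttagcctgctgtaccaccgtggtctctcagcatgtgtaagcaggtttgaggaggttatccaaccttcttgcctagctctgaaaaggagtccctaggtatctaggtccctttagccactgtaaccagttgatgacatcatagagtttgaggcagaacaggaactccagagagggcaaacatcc
Hk1, downstream start: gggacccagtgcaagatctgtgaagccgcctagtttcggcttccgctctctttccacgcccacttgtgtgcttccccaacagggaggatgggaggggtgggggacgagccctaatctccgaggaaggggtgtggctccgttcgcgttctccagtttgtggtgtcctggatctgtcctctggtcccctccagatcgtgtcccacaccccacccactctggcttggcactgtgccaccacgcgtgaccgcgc
Pck1: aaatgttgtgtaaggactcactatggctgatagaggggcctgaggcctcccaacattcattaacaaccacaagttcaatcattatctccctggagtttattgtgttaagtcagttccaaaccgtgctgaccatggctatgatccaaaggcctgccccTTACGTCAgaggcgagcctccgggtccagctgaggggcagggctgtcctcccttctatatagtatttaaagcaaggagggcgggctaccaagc
Mdh1: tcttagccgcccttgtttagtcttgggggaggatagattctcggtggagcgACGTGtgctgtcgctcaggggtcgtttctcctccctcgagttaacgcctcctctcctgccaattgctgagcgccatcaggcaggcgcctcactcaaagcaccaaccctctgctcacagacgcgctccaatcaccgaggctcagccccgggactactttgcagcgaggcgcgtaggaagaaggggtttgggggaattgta

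The TTACGTCA run of Pck1 lies at bases -93 to -86 from the start. Read on both strands, TTACGTCA was found in 1 of the 55 promoters of these genes and in 0.447% of 32851 mouse promoters of the same length. ACGTG was found, also on both strands, in 21 of the 55 promoters (38.2%) and in 16.6% of all promoters; neither motif contains the other. The 21 promoters belong to 14 of the 37 genes with a promoter in the table (Idh3a has none). These genes were Hk2, Pfkm, Aldoa, Pgk1, Pgam1, Pkm, Ldha, Pdhb, Pdk2, Pdk3, Pcx, Idh3g, Ogdh and Mdh1. A match is only a run of letters and says nothing of whether a factor binds there. Both Hk1 windows lacked both motifs. Other forms of the hypoxia response core, such as GCGTG in the downstream Hk1 window, were not searched.

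Depth was even, with 35583997 to 37327770 counts per library. Libraries within a group were less even. Ucp1 lay between 6240.3 and 10271 CPM (counts scaled to a common library size, with TMM normalisation) in 9 libraries and at 2882 CPM in obesity-prone replicate 3. That library also held 22269 CPM of 8 erythrocyte genes (709.7 to 6174 CPM in the others), 1131 CPM of white adipocyte-selective genes (88.6 to 267 CPM, with Lep, Nnat and Sncg carrying most of the sum in that library at 395, 342 and 253 CPM) and 549.7 CPM of 12 macrophage genes (121 to 355 CPM). Of the regional white fat genes, Hoxc9 and Hoxc10 were at or near 0 in every library, and Hoxc8 was lowest in obesity-prone replicate 3 (0.790 CPM). In tissue RNA, fewer cells of a type and less RNA per cell cannot be told apart.

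The set as a whole was lowest in obesity-prone replicate 3. Obesity-prone replicate 3 had the lowest value of all 10 libraries for 32 of the 38 genes, including 13 of 13 TCA cycle genes, 4 of 4 subunits of the pyruvate dehydrogenase complex and 5 of 5 genes of lower glycolysis. The 38 genes together summed to 16506 CPM there, against 27183 to 31933 CPM in the other 9 libraries. The median gene lay 0.76 log2 units below its mean over the libraries there, a median deviation of -0.76, and between -0.01 and 0.31 elsewhere. The 6 genes that were lowest elsewhere were Hk1, Pfkp, Pdk1, Pdk3, Pdk4 and Pcx.

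**Figure D1:**
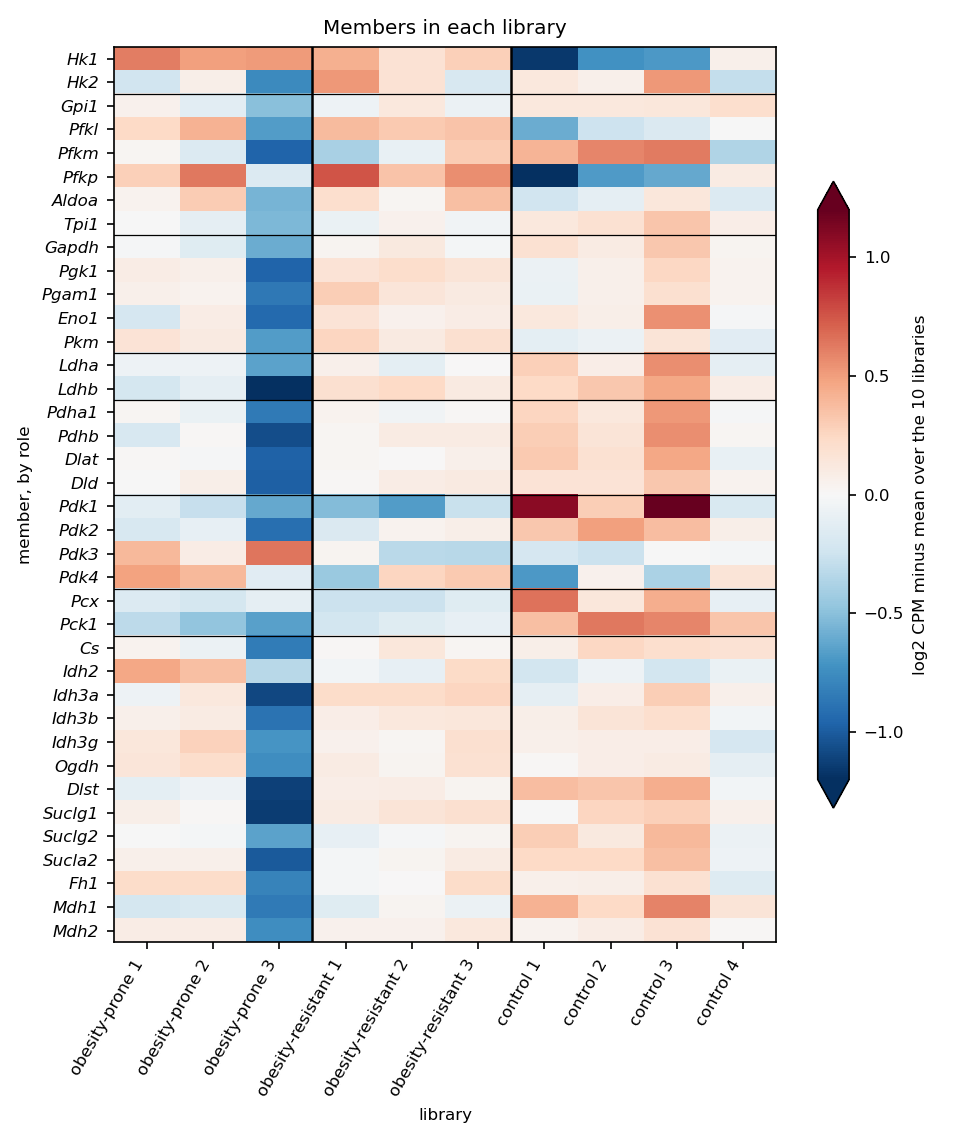
Each row is a gene, ordered by role with lines between roles, and each column a library; colour gives log2 CPM minus the gene's mean over the 10 libraries. Obesity-prone replicate 3 is blue for almost every row, while Hk1 and Pfkp are low in control replicates 1 to 3 and Pdk1 and Pcx are high in control replicates 1 and 3.

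Against control, 3 of the 38 genes (7.89%) were called in obesity-prone libraries by edgeR's quasi-likelihood test at an adjusted p below 0.05, while 7.00% of all 19676 genes tested were called. The share is near the background. By direction, 1 gene was called higher (3.71% of all genes) and 2 were called lower (3.29% of all genes). Fold changes leaned down: 31 of 38 were below 0, with a median log2 fold change of -0.39, against 0.0047 over all genes. Without obesity-prone replicate 3 the median was -0.16, with 26 of 38 below 0. Brown and general adipocyte markers lay on the same side in that comparison. Of the brown adipocyte genes 10 of 12 were below 0 (median -0.44, none called). So were 10 of 10 general adipocyte genes (median -0.46), of which Cfd and Fabp4 were called. White adipocyte-selective genes leaned the other way, with 5 of 7 above 0 (median 0.64, 2 called higher). The 12 macrophage genes were all above 0 (median 1.31, 3 called). So were 8 of 8 erythrocyte genes (median 2.06, none called) and 9 of 10 endothelial genes (median 0.32, none called). The part of these cell types in the values of the 38 genes was not tested. At an unadjusted p below 0.05 there were 18 of the 38 genes, 15 of them lower, against 28.1% of all genes. DESeq2 called 11 of the 38 and 16.2% of all genes it tested; beside the 3 named above these were Pfkp higher and Tpi1, Gapdh, Ldhb, Pdk1, Pdk2, Pcx and Dlst lower. A fit of the obesity-prone and control libraries alone called 0, and 0.344% of all genes. Leaving out obesity-prone replicate 3 together with control replicate 4 gave 11, and 13.3% of all genes.

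Hexokinases phosphorylate glucose on entry. Hk1, the broadly expressed form, had 106, 97.1 and 98.4 CPM in obesity-prone, 93.2, 77.8 and 84.5 CPM in obesity-resistant, and 31.0, 41.9, 43.0 and 72.1 CPM in control libraries. All 6 high-fat libraries lay above all 4 control libraries, and control replicate 4 lay nearest to them. Hk1 rose in obesity-prone libraries by a log2 fold change of 1.10 ± 0.22 (SE), a fold of 2.14, with an edgeR adjusted p of 0.026. The call was lost on leaving out obesity-prone replicate 1 or 3 or control replicate 1, 2 or 3 (adjusted p 0.055 to 0.084), while without control replicate 4 the log2 fold change was 1.38 and the adjusted p 0.0013. In obesity-resistant libraries Hk1 had a log2 fold change of 0.86 ± 0.22 against control (edgeR adjusted p 0.11), and 1.14 with an adjusted p of 0.0071 without control replicate 4. Leaving out any other single library gave no call of Hk1 in that comparison. Hk2, the insulin-responsive form typical of fat and muscle, had 270.4, 334 and 187 CPM in obesity-prone, 457, 359 and 278 CPM in obesity-resistant, and 348, 331, 456 and 259.9 CPM in control libraries. Its groups overlapped in every comparison, with an edgeR adjusted p of 0.31 between obesity-prone and control libraries.

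Levels of different genes are compared as FPKM (fragments scaled by transcript length and library size), the authors' length-scaled values. On that scale Hk2 exceeded Hk1 in every library, but the split differed. Hk1 made up 35.2%, 29.0% and 41.5% of hexokinase FPKM (Hk1, Hk2 and Hk3) in obesity-prone, 22.3%, 23.3% and 29.6% in obesity-resistant, and 11.1%, 15.0%, 11.6% and 27.8% in control libraries. Obesity-prone shares all exceeded control shares, whereas control replicate 4 lay within the obesity-resistant range.

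Phosphofructokinase commits glucose to glycolysis, and its subunits are named for liver (Pfkl), muscle (Pfkm) and platelet (Pfkp). Pfkp had 211, 267 and 154 CPM in obesity-prone, 291, 219 and 254 CPM in obesity-resistant, and 74.1, 108, 113 and 185 CPM in control libraries. The obesity-resistant libraries lay above every control library, whereas obesity-prone replicate 3 lay below control replicate 4. Its log2 fold change was 0.82 ± 0.28 in obesity-prone (edgeR adjusted p 0.093) and 1.09 ± 0.28 in obesity-resistant libraries (adjusted p 0.10), both against control. Without control replicate 4, the control library nearest to the high-fat ones, both were called, at 1.10 (adjusted p 0.016) and 1.38 (adjusted p 0.015). Leaving out any other single library gave no call of Pfkp in either comparison.

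Pfkm showed the opposite placing, with 43.0, 37.7 and 21.7 CPM in obesity-prone, 32.2, 39.7 and 52.2 CPM in obesity-resistant, and 56.0, 63.3, 65.2 and 32.9 CPM in control libraries. Control replicates 1 to 3 were the highest libraries and control replicate 4 lay among the high-fat ones (obesity-prone against control, log2 fold change -0.67 ± 0.29, edgeR adjusted p 0.16). Pfkl had 666, 754 and 355 CPM in obesity-prone, 731, 699 and 712 CPM in obesity-resistant, and 373, 475, 498 and 562 CPM in control libraries. Its obesity-resistant libraries lay above all controls, by a log2 fold change of 0.58 ± 0.23 (edgeR adjusted p 0.23). As a share of phosphofructokinase FPKM, Pfkm made up 5.37%, 4.20% and 4.74% in obesity-prone, 3.60%, 4.85% and 5.99% in obesity-resistant, and 12.6%, 11.2%, 11.1% and 4.98% in control libraries. Pfkl held 74.1%, 74.1% and 69.5% in obesity-prone libraries, all below the control libraries, and 69.5% to 75.8% over all 10.

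**Figure D2:**
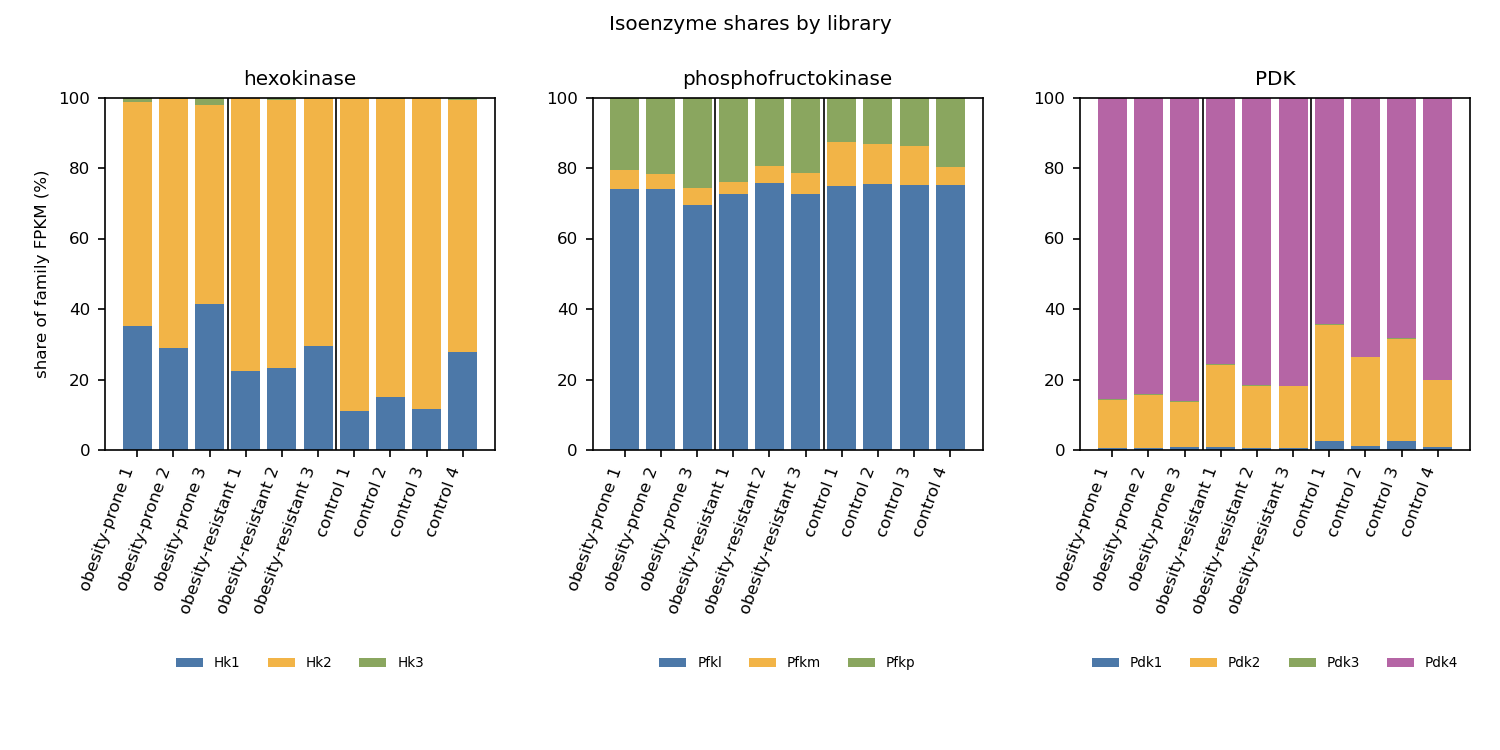
Stacked bars give each isoenzyme's share (%) of its family's FPKM in each library, for hexokinases, phosphofructokinase subunits and pyruvate dehydrogenase kinases, with obesity-prone libraries on the left, then obesity-resistant and control libraries. Control replicates 1 to 3 have the smallest Hk1, Pfkp and Pdk4 shares, and control replicate 4 resembles the high-fat libraries.

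The remaining genes of upper and lower glycolysis were not called by edgeR in any comparison, while DESeq2 called Tpi1 and Gapdh lower in obesity-prone against control libraries. Aldoa, the aldolase, was among the most abundant at 1517 ± 404 FPKM in obesity-prone (SD, n = 3) and 1389 ± 129 FPKM in control libraries (SD, n = 4), with a log2 fold change of 0.05 ± 0.20 on counts. Gpi1, Tpi1 and Gapdh were each lower in every obesity-prone library than in any control library. Gapdh, which is often used as a reference transcript, had 1436, 1312 and 959 CPM in obesity-prone, 1483, 1573 and 1429 CPM in obesity-resistant, and 1648, 1557, 1814 and 1480.3 CPM in control libraries. Its log2 fold change was -0.39 ± 0.16 in obesity-prone against control libraries (edgeR adjusted p 0.14). Pgk1, Pgam1, Eno1 and Pkm, which complete the path to pyruvate, had log2 fold changes of -0.49 to -0.05 in obesity-prone and of -0.10 to 0.22 in obesity-resistant libraries against control. Counts of Gpi1, Tpi1, Gapdh, Pgk1, Pgam1, Eno1 and Pkm were not all whole, so their values are uncertain. The lower-glycolysis median log2 fold change in obesity-prone against control libraries was -0.27, and -0.01 without obesity-prone replicate 3.

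Lactate dehydrogenase interconverts pyruvate and lactate, from Ldha and Ldhb subunits. Ldhb had 249, 269 and 114 CPM in obesity-prone, 330.5, 342 and 311 CPM in obesity-resistant, and 342, 361, 399 and 308 CPM in control libraries. All obesity-prone libraries lay below all others, with a log2 fold change of -0.74 ± 0.25 against control (edgeR adjusted p 0.087) and -0.64 against obesity-resistant libraries (adjusted p 0.29). Ldha had 402, 402 and 267 CPM in obesity-prone, 435, 385 and 419.8 CPM in obesity-resistant, and 510.1, 441, 617 and 387 CPM in control libraries. Control replicate 4 was the control library that overlapped the obesity-prone ones (log2 fold change -0.45 ± 0.19, edgeR adjusted p 0.15).

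The 4 subunit genes of the pyruvate dehydrogenase complex, Pdha1, Pdhb, Dlat and Dld, had log2 fold changes of -0.62 to -0.41 in obesity-prone and of -0.23 to -0.11 in obesity-resistant libraries against control, and none was called. Pdhb, the E1 beta subunit, had 294, 339.9 and 161 CPM in obesity-prone, 343, 361 and 359.9 CPM in obesity-resistant, and 413, 374, 496 and 343 CPM in control libraries. Its obesity-prone libraries lay below every control library, the nearest pair being 339.9 and 343 CPM (log2 fold change -0.62 ± 0.23, edgeR adjusted p 0.11). The median log2 fold change of the 4 subunits in obesity-prone against control libraries was -0.49, and -0.25 without obesity-prone replicate 3.

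The kinases that inactivate the complex did not move together. Pdk4, which is induced by fasting and fatty acids, was by far the most abundant, with 2564, 2409 and 1668 CPM in obesity-prone, 1343, 2199 and 2285 CPM in obesity-resistant, and 1134, 1901, 1408 and 2036 CPM in control libraries. The groups overlapped (obesity-prone against control, log2 fold change 0.45 ± 0.26, edgeR adjusted p 0.28). Pdk2 had 264, 282 and 161 CPM in obesity-prone, 267, 310.2 and 316 CPM in obesity-resistant, and 378, 425, 389 and 317 CPM in control libraries. All control libraries lay above all high-fat libraries, the nearest pair being 316 and 317 CPM. For obesity-prone against control libraries the log2 fold change was -0.68 ± 0.19 (edgeR adjusted p 0.054).

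Pdk1, a hypoxia-responsive kinase, had 25.8, 23.2 and 18.3 CPM in obesity-prone, 19.6, 17.6 and 23.3 CPM in obesity-resistant, and 59.6, 34.4, 68.4 and 24.8 CPM in control libraries. Control replicates 1 to 3 were the highest libraries, while control replicate 4 lay below obesity-prone replicate 1. The log2 fold change was -1.06 ± 0.31 in obesity-prone (edgeR adjusted p 0.064) and -1.21 ± 0.31 in obesity-resistant libraries (adjusted p 0.11). Without control replicate 4 these were -1.27 (adjusted p 0.013) and -1.43 (adjusted p 0.017), both called. Leaving out any other single library gave no call of Pdk1 in either comparison. Pdk3 was close to silent, at 1.67 to 3.34 CPM, with all obesity-prone libraries (2.79, 2.26 and 3.34 CPM) above the other 7 (log2 fold change 0.52 ± 0.18 against control, edgeR adjusted p 0.10).

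Pdk4 made up 85.6%, 84.1% and 86.2% of kinase FPKM in obesity-prone, 75.8%, 81.7% and 81.9% in obesity-resistant, and 64.3%, 73.6%, 68.3% and 80.0% in control libraries. Its share was higher in every obesity-prone library than in any other library, although the Pdk4 level itself was not called. The Pdk2 share ran the other way, at 13.6%, 15.1% and 12.8% in obesity-prone, 23.2%, 17.7% and 17.4% in obesity-resistant, and 32.9%, 25.3%, 29.0% and 19.1% in control libraries.

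**Figure D3:**
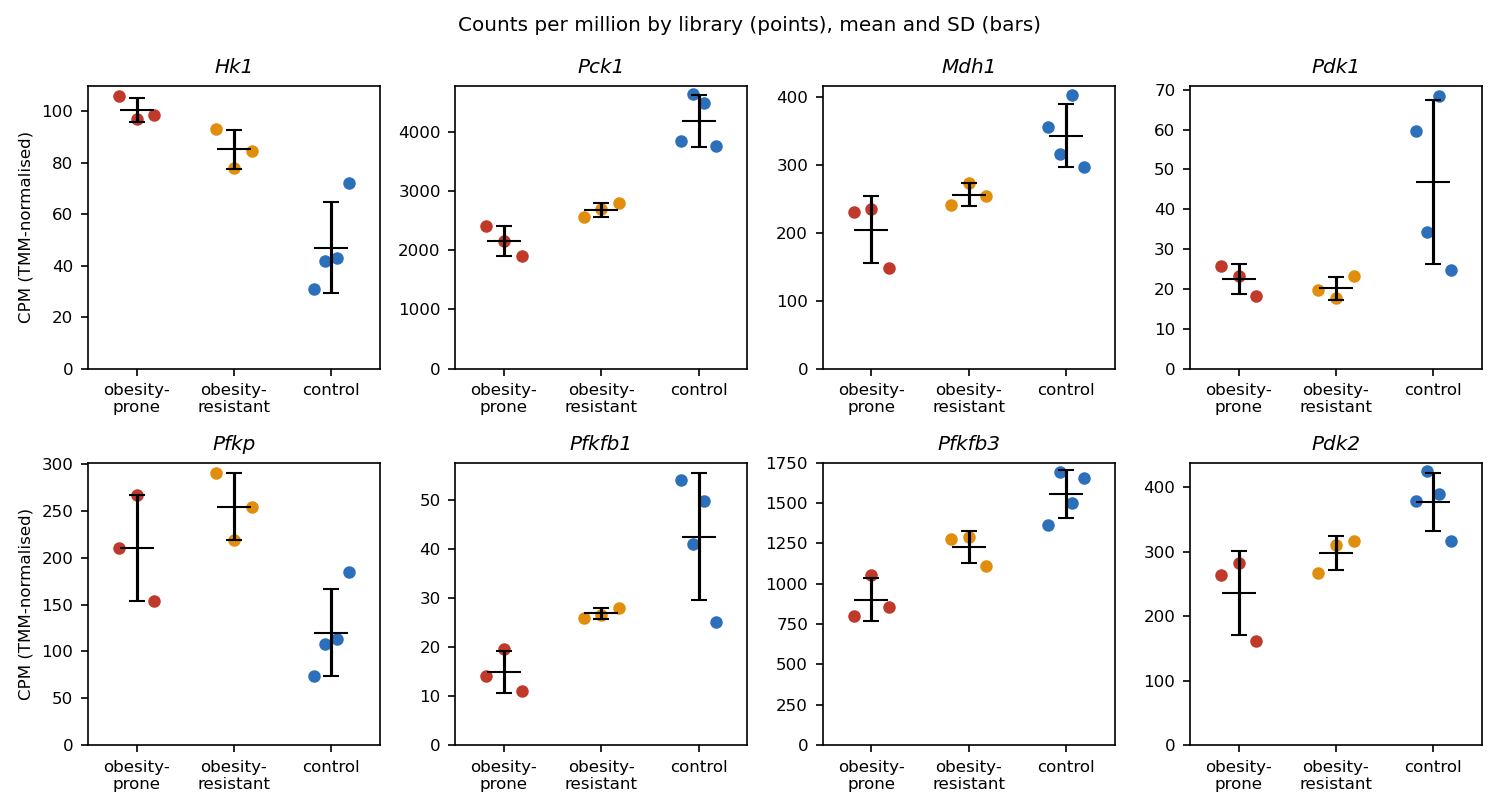
Points are TMM-normalised CPM of each library and bars the mean ± SD, for 3 obesity-prone, 3 obesity-resistant and 4 control libraries; each axis starts at 0. Hk1 is higher in all 6 high-fat libraries, Pck1 is lower in all 6, and control replicate 4, the rightmost point of each panel, lies nearest to the high-fat libraries for Hk1, Pfkp, Pdk1 and Pfkfb1.

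Pck1 gave the lowest p of the set. It had 2415, 2152 and 1902 CPM in obesity-prone, 2565, 2700.4 and 2798 CPM in obesity-resistant, and 3857, 4644, 4499 and 3771 CPM in control libraries. The 3 groups did not overlap, with obesity-resistant libraries in between. Means were 2156 ± 256 CPM in obesity-prone (SD, n = 3), 2688 ± 117 CPM in obesity-resistant (SD, n = 3) and 4193 ± 442 CPM in control libraries (SD, n = 4). Pck1 fell in obesity-prone libraries by a log2 fold change of -0.96 ± 0.15, a fold of 0.514 (edgeR adjusted p 0.014). The call held on leaving out 9 of the 10 libraries, and the adjusted p was 0.053 without control replicate 3. In obesity-resistant libraries the log2 fold change was -0.64 ± 0.15 (edgeR adjusted p 0.092), with an adjusted p of 0.034 without obesity-prone replicate 3 and of 0.046 without control replicate 4. Pck1 was the most abundant of the 38 transcripts in control libraries (1575 ± 122 FPKM, SD, n = 4) and ranked behind Aldoa and Gapdh in obesity-prone libraries (855 ± 105 FPKM, SD, n = 3).

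Pcx, the mitochondrial pyruvate carboxylase that makes oxaloacetate, had 457, 441 and 473 CPM in obesity-prone, 428, 428 and 463 CPM in obesity-resistant, and 802, 561, 692 and 477 CPM in control libraries. All 6 high-fat libraries lay between 428 and 473 CPM, just under control replicate 4. The log2 fold change was -0.47 ± 0.16 in obesity-prone (edgeR adjusted p 0.099) and -0.53 ± 0.16 in obesity-resistant libraries (adjusted p 0.14). Unlike most of the set, Pcx was not reduced in obesity-prone replicate 3.

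Of the 13 genes grouped here as TCA cycle, edgeR called 1 in obesity-prone against control libraries, the cytosolic Mdh1. None of the mitochondrial genes of the group was called by edgeR there, while DESeq2 called Dlst as well as Mdh1. Mdh1, the cytosolic malate dehydrogenase of the malate-aspartate shuttle, had 231, 236 and 148 CPM in obesity-prone, 241, 274 and 255 CPM in obesity-resistant, and 357, 316, 404 and 298 CPM in control libraries. All high-fat libraries lay below all controls. Mdh1 fell in obesity-prone libraries by a log2 fold change of -0.75 ± 0.17, a fold of 0.596 (edgeR adjusted p 0.034), and had -0.42 ± 0.17 in obesity-resistant libraries (adjusted p 0.24). The obesity-prone call was lost on leaving out obesity-prone replicate 1, any obesity-resistant replicate, or control replicate 1, 2 or 3 (adjusted p 0.056 to 0.10). Without obesity-prone replicate 3, in which Mdh1 was lowest, the log2 fold change was -0.56 and the adjusted p 0.049.

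The mitochondrial counterpart Mdh2 had a log2 fold change of -0.22 ± 0.18 (edgeR adjusted p 0.47) and the citrate synthase Cs one of -0.42 ± 0.20 (adjusted p 0.19), both in obesity-prone against control libraries. Dlst, the E2 subunit of 2-oxoglutarate dehydrogenase, had 677, 706 and 339 CPM in obesity-prone, 778, 783 and 755 CPM in obesity-resistant, and 951, 930.3, 994 and 718 CPM in control libraries. Its obesity-prone libraries were below all others (log2 fold change -0.65 ± 0.23 against control, edgeR adjusted p 0.11). The isocitrate dehydrogenase subunits Idh3a, Idh3b and Idh3g, the 2-oxoglutarate dehydrogenase Ogdh, the succinyl-CoA ligase subunits Suclg1, Suclg2 and Sucla2 and the fumarase Fh1 had log2 fold changes of -0.42 to -0.04 in obesity-prone and of -0.22 to 0.14 in obesity-resistant libraries against control. Over the 13 genes the median log2 fold change in obesity-prone against control libraries was -0.35, with 12 below 0, and it was -0.06, with 8 below 0, without obesity-prone replicate 3.

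Idh2, the NADP-dependent mitochondrial isocitrate dehydrogenase, was the TCA cycle gene with a positive fold change in obesity-prone against control libraries. It had 324, 302 and 186 CPM in obesity-prone, 229, 219 and 275 CPM in obesity-resistant, and 202, 226, 202 and 222 CPM in control libraries. Obesity-prone replicates 1 and 2 were the highest of the 10 libraries and replicate 3 the lowest. The log2 fold change was 0.35 ± 0.17 (edgeR adjusted p 0.22), and 0.56 with an adjusted p of 0.036 without obesity-prone replicate 3. Leaving out any other single library gave no call of Idh2.

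**Figure D4:**
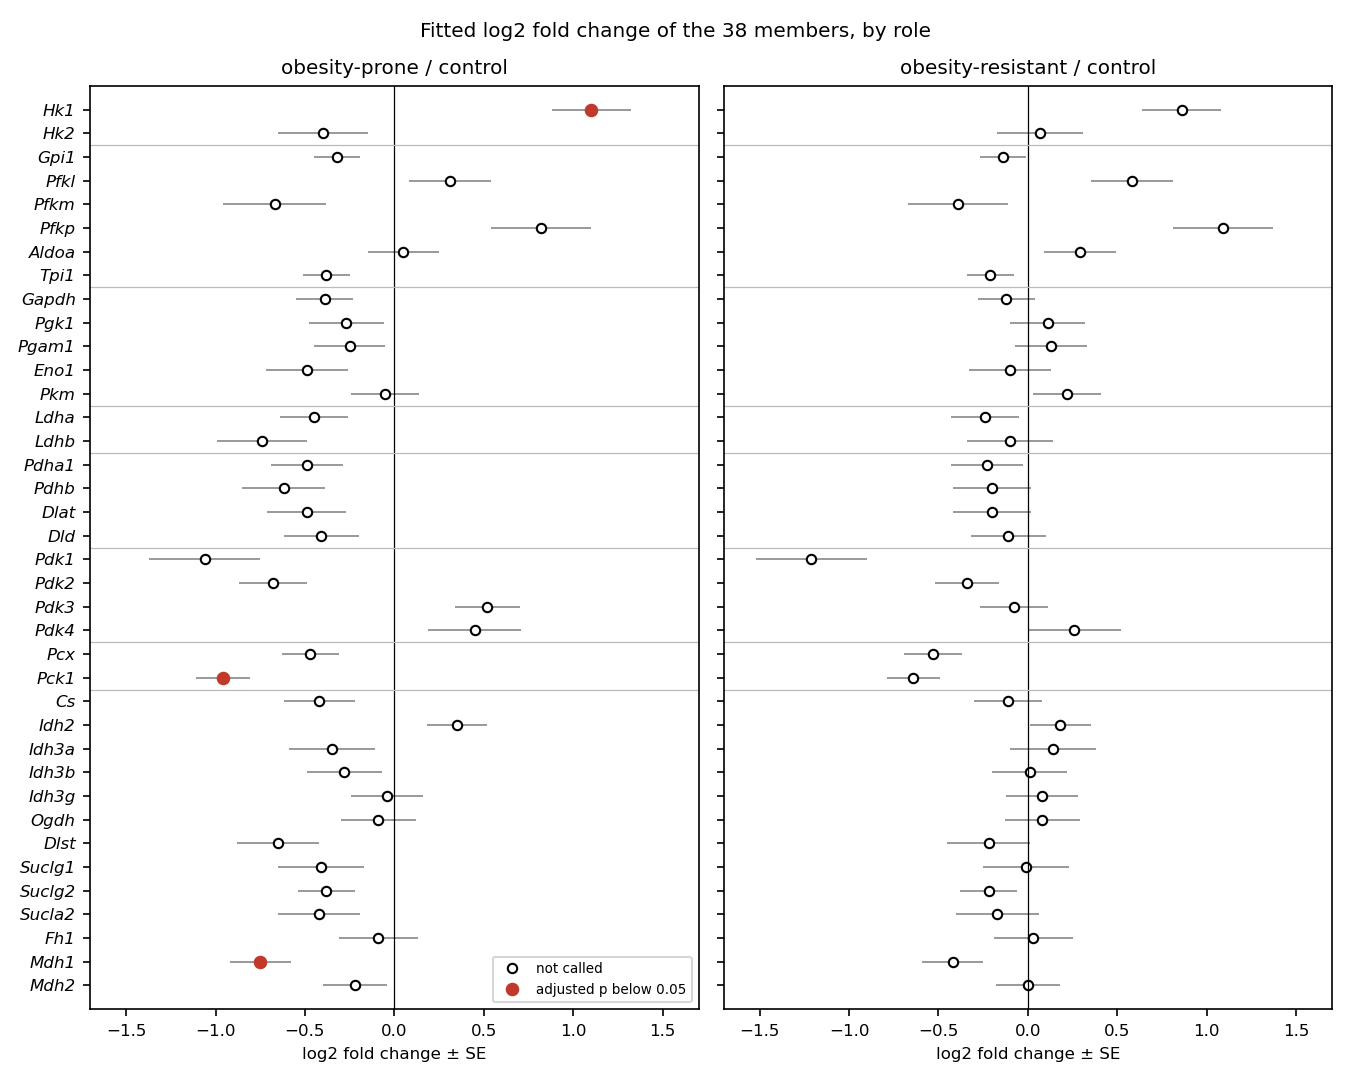
Points are log2 fold changes from edgeR with their standard errors for the 38 genes in order of role, obesity-prone over control on the left and obesity-resistant over control on the right; filled points passed an adjusted p of 0.05. Hk1, Pck1 and Mdh1 are filled on the left and none on the right, where most points lie nearer to 0.

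Against control, 0 of the 38 genes were called in obesity-resistant libraries by edgeR, while 0.142% of all genes were called, which is 28 of 19676. DESeq2 called 5 of the 38, Hk1 and Pfkp higher and Pck1, Pcx and Pdk1 lower, and 5.78% of all genes it tested. At an unadjusted p below 0.05 there were 7 of the 38, against 18.0% of all genes. Their median log2 fold change was -0.10, against -0.0061 over all genes. Both contrasts share the 4 control libraries, so their values are given side by side and not as independent evidence.

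Counts of genes whose groups did not overlap were also set against all genes. In obesity-prone against control libraries 2 genes were wholly higher (9.66% of all genes were) and 11 wholly lower (10.6% of all genes were). The 2 were Hk1 and Pdk3, and the 11 were Gpi1, Tpi1, Gapdh, Ldhb, Pdhb, Pdk2, Pcx, Pck1, Cs, Dlst and Mdh1. In obesity-resistant against control libraries Hk1, Pfkl and Pfkp were wholly higher, 3 of 38 (10.5% of all genes were), and Tpi1, Pdk1, Pdk2, Pcx, Pck1 and Mdh1 wholly lower, 6 of 38 (9.69% of all genes were).

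Between obesity-prone and obesity-resistant libraries edgeR called 0 of the 38 genes and 0.00% of all genes. DESeq2 called 0 of the 38 and 544 of all genes. At an unadjusted p below 0.05 there were 2 of the 38, Ldhb lower and Pdk3 higher, against 15.4% of all genes, or 3030 genes. The median log2 fold change was -0.27, with 32 of 38 below 0, and -0.03 without obesity-prone replicate 3. Hk1 and Pdk3 were wholly higher in obesity-prone libraries, 2 of 38 (9.97% of all genes were). Pgk1, Pgam1, Ldhb, Pdhb, Pck1, Idh3a, Dlst, Suclg1 and Mdh1 were wholly lower, 9 of 38 (9.81% of all genes were). For Pck1 the log2 fold change was -0.32 (edgeR adjusted p 0.36).

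Genes around the pathway were read from lists of regulators, transporters and further isoenzymes. The clearest group was the bifunctional enzymes that set the level of fructose 2,6-bisphosphate, the activator of phosphofructokinase. Of 5 genes of that kind, 3 fell in obesity-prone against control libraries (3.29% of all genes were called lower). Pfkfb1 had 14.0, 19.5 and 11.0 CPM in obesity-prone, 25.9, 26.6 and 28.0 CPM in obesity-resistant, and 54.1, 41.0, 49.8 and 25.0 CPM in control libraries, and its obesity-prone libraries lay below all others. It fell by a log2 fold change of -1.52 ± 0.26 (edgeR adjusted p 0.018, and 0.056 without control replicate 3). Pfkfb3, by far the most abundant in counts, had 797, 1053 and 852 CPM in obesity-prone, 1279, 1290.1 and 1111 CPM in obesity-resistant, and 1365, 1692, 1502 and 1654 CPM in control libraries, and the 3 groups did not overlap. It fell by -0.79 ± 0.15 (edgeR adjusted p 0.021, and 0.057 to 0.063 without obesity-prone replicate 1 or control replicate 2 or 3). Pfkfb2 fell by -0.43 ± 0.11 (edgeR adjusted p 0.045), a call that held in 2 of the 10 fits that left out a library, those without obesity-prone replicate 1 (0.031) and control replicate 4 (0.024), and was lost in the others (0.069 to 0.12). The other two, Pfkfb4 and the phosphatase Tigar, had log2 fold changes of 0.34 ± 0.30 and 0.21 ± 0.14 and were not called.

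Of 7 transporters of glucose, lactate and pyruvate, 1 rose and 1 fell in obesity-prone against control libraries (3.71% of all genes were called higher and 3.29% lower). Slc16a3, the lactate exporter MCT4, had 3.89, 2.07 and 2.47 CPM in obesity-prone, 1.58, 1.40 and 1.78 CPM in obesity-resistant, and 0.531, 1.19, 0.884 and 1.45 CPM in control libraries. Slc16a3 was close to silent in all groups, with mean FPKM of 1.13 in obesity-prone, 0.587 in obesity-resistant and 0.380 in control libraries. It rose by a log2 fold change of 1.47 ± 0.32 (edgeR adjusted p 0.031), and the call was lost without obesity-prone replicate 1 or 3, obesity-resistant replicate 1 or 2, or control replicate 1, 2 or 3 (0.051 to 0.095). Slc16a7, the monocarboxylate transporter MCT2, had 17.5, 15.3 and 25.0 CPM in obesity-prone, 10.3, 13.7 and 17.5 CPM in obesity-resistant, and 58.0, 40.6, 53.3 and 24.0 CPM in control libraries. Obesity-prone replicate 3 lay above control replicate 4. It fell by -1.19 ± 0.30 (edgeR adjusted p 0.046), a call that held only without control replicate 4 (0.0090) among the fits that left out a library, and was lost in the others (0.059 to 0.12). Slc2a4, the insulin-responsive glucose transporter GLUT4, had 172, 243 and 105 CPM in obesity-prone, 359, 315 and 262 CPM in obesity-resistant, and 368, 308, 355 and 227 CPM in control libraries, and was not called (log2 fold change -0.86 ± 0.27 against control, adjusted p 0.073).

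Among 11 further TCA cycle and succinate dehydrogenase genes that were tested, 2 fell in obesity-prone against control libraries (3.29% of all genes were called lower) and none rose. Dhtkd1, which acts on 2-oxoadipate in lysine breakdown, had 8.72, 8.48 and 8.95 CPM in obesity-prone, 14.1, 11.4 and 14.8 CPM in obesity-resistant, and 22.4, 19.0, 24.2 and 15.9 CPM in control libraries. The 3 groups did not overlap, obesity-prone replicate 3 was like its group, and the log2 fold change was -1.22 ± 0.15 (edgeR adjusted p 0.0091, called without each library in turn). Aco1, the cytosolic aconitase and iron regulatory protein, had 126, 126 and 118 CPM in obesity-prone, 105, 132 and 125 CPM in obesity-resistant, and 258, 189, 231 and 148 CPM in control libraries. It fell by -0.75 ± 0.17 (edgeR adjusted p 0.034), a call that held without obesity-prone replicate 2, obesity-resistant replicate 1 or control replicate 4, and was lost without any of the others (0.056 to 0.10). Sdha, the flavoprotein subunit of succinate dehydrogenase, had a log2 fold change of 0.01 ± 0.22 and was not called.

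Of 15 genes of anaplerosis, the malate-aspartate shuttle and glycerol phosphate synthesis, 1 fell (6.67%, against 3.29% of all genes): Slc25a11, the mitochondrial 2-oxoglutarate and malate carrier that works beside Mdh1 in that shuttle. It had 81.7, 80.9 and 45.0 CPM in obesity-prone, 78.5, 91.8 and 90.1 CPM in obesity-resistant, and 130.2, 124, 141 and 104 CPM in control libraries. All high-fat libraries lay below all controls (log2 fold change -0.85 ± 0.20 in obesity-prone libraries, edgeR adjusted p 0.034). That call was lost without obesity-prone replicate 1, any obesity-resistant replicate, or control replicate 1, 2 or 3 (0.053 to 0.10). No gene was called among 11 other tested glycolytic isoenzymes, 6 other pyruvate dehydrogenase genes and 14 regulators of the pathway, and edgeR called none of these lists' genes in the other 2 comparisons between groups.

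The set was checked against skeletal muscle, since muscle beside brown fat is rich in glycolytic enzymes. Acta1, the skeletal muscle actin, had 7.63, 0.734 and 17.1 CPM in obesity-prone, 0.417, 35.4 and 110.4 CPM in obesity-resistant, and 0.168, 129.8, 58.7 and 0.348 CPM in control libraries. It varied within every group and was not called (obesity-prone against control, edgeR adjusted p 0.45). Of 24 muscle genes, 24 were below 0 in obesity-prone against control libraries (median log2 fold change -3.25, none called). Against obesity-resistant libraries 24 of 24 were below 0 as well (median -3.09, none called). In obesity-resistant against control libraries 16 of 24 were below 0 (median -0.19, none called). Summed over 24 muscle genes the level was 39.8 to 242 CPM in obesity-prone, 60.3 to 2663 CPM in obesity-resistant and 42.0 to 3155 CPM in control libraries. Markers at 0 in at least 1 library were Ckm, Tnnc2, Pvalb and Myot in obesity-prone, Myh2, Ckmt2 and Myot in obesity-resistant, and Ckm, Mybpc1, Pvalb, Actn3, Myoz1 and Myot in control libraries.

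A fit of every gene on the muscle score of its library, beside the groups, called 82 genes higher with the score, or 0.417% of all genes, by edgeR. None of the 38 was called by edgeR (0 at an unadjusted p below 0.05) or by DESeq2, a count of 0 with each. The score is the mean over the 24 muscle genes of log2 CPM minus the gene's own mean. Those genes stayed in the fit, and 21 of the 24 were among the 82 called, as the making of the score favours. The lowest p belonged to Pfkm, the muscle subunit, at 0.071 ± 0.040 log2 units per unit of score (edgeR adjusted p 1.0). By contrast Eno3, the muscle enolase that is not among the 38 genes, had 4.33, 2.77 and 3.29 CPM in obesity-prone, 1.97, 4.30 and 12.9 CPM in obesity-resistant, and 4.36, 15.8, 10.4 and 2.52 CPM in control libraries, and was called with the score. With the score as a covariate Hk1 and Pck1 were still called in obesity-prone against control libraries and Mdh1 was not, although its log2 fold change was -0.74 (adjusted p 0.064) and its slope on the score 0.004 ± 0.028. Leaving out the 4 libraries of score above 1 (obesity-resistant replicates 2 and 3, control replicates 2 and 3) left 0 of the 38 and 0 of all genes called in any comparison, with 2 control libraries and 1 obesity-resistant library in the fit. The median log2 fold change of the 38 genes was then -0.31 in obesity-prone and -0.00 in obesity-resistant libraries against control.

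**Figure D5:**
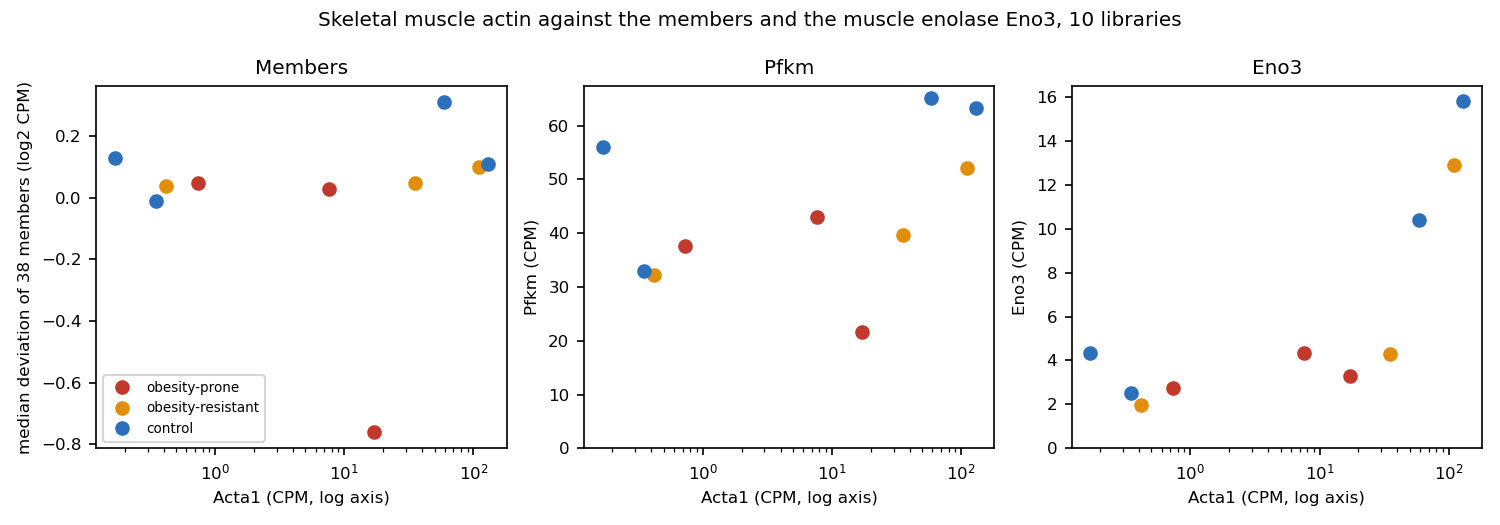
Each point is a library; Acta1 (CPM, log axis) is set against the median deviation of the 38 genes, against Pfkm and against the muscle enolase Eno3 (both in CPM). Eno3 is highest in the 3 libraries with most Acta1, while the median of the 38 genes is lowest in obesity-prone replicate 3, whose Acta1 of 17.1 CPM lies in mid-range.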

How the data were processed

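Total RNA of brown adipose tissue was sequenced in 10 libraries. Per the labels' protocols, reads were aligned with Bowtie2 2.2.5 to the sequencing company's gene set and RSEM 1.2.12 computed the values; HISAT2 2.0.4 and the build GRCm38.p6 stand in the submitters' processing notes. The authors deposited expected counts, which are not normalised (30.4% of the values are not whole), and FPKM per gene, whose scale followed the count totals to within 0.13%. The strand setting and the annotation release are not given in the sources used here, so reads of overlapping antisense genes cannot be told apart. Of the 38 genes, 25 had whole counts in every library; Hk2, Gpi1, Tpi1, Gapdh, Pgk1, Pgam1, Eno1, Pkm, Ldhb, Pdhb, Dlat, Ogdh and Suclg2 did not, so some of their reads were shared with other genes and their values are uncertain. The same limit held for Pfkfb2, Pfkfb3, Pfkfb4, Dhtkd1, Aco1, Sdha, Slc25a11 and Eno3 among the pathway genes given with values. The 6 columns of group means were not used.

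Expected counts were rounded and fitted in edgeR 4.0.16 (R 4.3.3) over all 10 libraries, with TMM factors, filterByExpr (minimum count 10), 1 coefficient per group and 7 residual degrees of freedom. P-values were adjusted by Benjamini-Hochberg over all 19676 genes tested, with calls below 0.05. Fold changes are given as the group named over the group it is set against. FPKM served for levels between genes. Deviations per library used log2(CPM + 0.05), and the muscle score log2 CPM with a prior count of 2. Gene coordinates and promoters came from RefSeq on GRCm38.p6.

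Genes given with full values were those called and the one with the lowest p in each role; all 38 are described, and the others named with values, as well as Slc2a4, Sdha and Eno3, were chosen after their values were seen. The 38 genes and the lists were chosen with earlier results of these data known. The scripts were tested on simulated data. In obesity-prone against control libraries 51.0% of simulated 2-fold changes and 85.9% of 4-fold changes were recovered. Of the calls made there, 10.1% were false. For the muscle score 77.9% of simulated slopes were recovered. The simulated slopes were larger than any fitted for the 38 genes, which were at most 0.071 in size (Pfkm). That share therefore does not apply to slopes as small as those. Genes that were not called may therefore still differ between groups, and some calls may be false. Alternatives were DESeq2 1.42.0, other scaling factors and filters, limma 3.58.1 on log2 FPKM with 0.5, 0.1 or 1 added, fits of only the groups compared, a replicate block, the muscle score as covariate, and leaving out libraries.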

Additional observations from a re-analysis of the deposited data

Results flagged for a closer look

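In control libraries, 2 of the 38 genes had a sample far from the other 3 by Dixon's criterion for 4 samples, and in both it was control replicate 4. Gpi1, glucose-6-phosphate isomerase, was at 602 CPM there, against 572 to 576 CPM in the other control libraries. Idh3g, a subunit of the NAD-dependent isocitrate dehydrogenase, was at 538 CPM there, against 646 to 652 CPM in the others. Chance alone sets a sample apart in about 1 of 20 groups, and 38 control groups were examined.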

How the results depend on the processing

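Hk1, Pck1 and Mdh1 kept their direction in obesity-prone against control libraries in all 24 alternatives, and were called in 16, 20 and 12 of them. Genes of the set called in that comparison numbered 11 with DESeq2, 0 in the fit of only the groups compared, 0 with limma on unfiltered FPKM, 11 without obesity-prone replicate 3 and control replicate 4, 0 without the 4 libraries of muscle score above 1, and 0 to 8 on leaving out 1 library, against 3. All genes called there numbered 3030, 66, 325, 2635 and 0 under those alternatives, 576 with the muscle score as covariate, and 76 to 3040 on leaving out 1 library. In obesity-resistant against control libraries the set had 5 calls with DESeq2, 1 in the fit of only the groups compared, 3 with the replicate block, 9 without obesity-prone replicate 3 and control replicate 4, and 0 to 5 on leaving out 1 library, against 0. All genes called there numbered 1084 with DESeq2, 76 with no filter, 68 with the stricter filter, 391 in the fit of only the groups compared, 382 with the replicate block, 8 with limma on unfiltered FPKM, 52 with the muscle score as covariate, 2212 without obesity-prone replicate 3 and control replicate 4, 0 without the libraries of muscle score above 1, and 3 to 864 on leaving out 1 library, against 28. Between obesity-prone and obesity-resistant libraries DESeq2 called 544 genes and leaving out 1 library gave 0 to 871, while the set had 0 calls throughout. The median log2 fold change of the set on leaving out 1 library ranged from -0.48 to -0.16, -0.12 to -0.04 and -0.41 to -0.03 in the 3 comparisons, and in obesity-resistant against control libraries it was -0.00 without the libraries of muscle score above 1. Among the 16 genes chosen by rule for full values, signs turned in 2 values, neither called: Ldhb in obesity-resistant against control libraries was 0.03 (adjusted p 1.0) without the libraries of muscle score above 1, and Aco1 in obesity-prone against obesity-resistant libraries was -0.06 (adjusted p 0.92) without obesity-resistant replicate 1 and up to 0.10 without the other libraries. Smaller fits lose samples by construction; the cause of the other differences was not tested.

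The replicate block called 4 of the 38 genes in obesity-prone against control libraries (Hk1 and Pfkp higher, Pck1 and Pdk1 lower, and not Mdh1), and 8.04% of all genes. The replicate numbers showed no pairing, since deviations of same-numbered libraries correlated at -0.146 to 0.206 over 9 pairs and 3 of 10 libraries were closest to their own number. Pdk3, at 1.67 to 3.34 CPM, rests on the fewest counts of the 38.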
